A study of Mus musculus with 3 samples.

Results

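The RANK, CD40 and lymphotoxin receptor axis was followed through the stroma of the aged mouse thymus by means of 10 genes, taken by symbol from the 32293 rows of the count matrices: Tnfrsf11a (RANK), Tnfrsf11b (osteoprotegerin), Tnfsf11 (RANK ligand), Cd40, Ltbr, Relb, Nfkb2, Traf6, Traf3 and Map3k14 (NIK). All 10 had at least 1 unique molecular identifier (UMI) and all were described, whatever their level. Cell barcodes were sorted by the transcripts of marker genes and not by clustering. Thymic epithelial cells (TEC) had at least 2 Epcam UMIs, endothelial cells (EC) at least 2 Pecam1 UMIs, fibroblasts (FB) at least 2 Pdgfra UMIs and mural cells at least 5 UMIs of Rgs5 and Acta2 together, and barcodes past more than 1 of these limits were dropped. Within TEC, barcodes with at least 2 Aire UMIs (Aire TEC), at least 2 Psmb11 UMIs (Psmb11 TEC) or at least 10 Ccl21a UMIs (Ccl21a TEC) were set apart, and the remainder was called other TEC.

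RANK, CD40 and the lymphotoxin beta receptor are members of the TNF receptor superfamily that TEC and other stromal cells carry and whose ligands are made largely by developing T cells and innate lymphoid cells. The receptors recruit TRAF adaptors. TRAF6 passes the RANK and CD40 signal to the canonical NF-kB pathway and TRAF3 holds the kinase NIK at a low level until a receptor is engaged, after which NIK drives processing of the Nfkb2 product p100 and release of RelB dimers. In the thymus this route is known for its part in the formation of the medulla and of the medullary TEC that express the autoimmune regulator AIRE, and osteoprotegerin is a soluble decoy that binds RANK ligand.

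There were 3 single-cell libraries of CD45- thymic stroma from untreated 20-month-old C57BL/6 mice, with 1 library for each of 3 groups (n = 1). Foxn1Lin female and Foxn1Lin male came from Foxn1 lineage trace mice, in which Cre under the control of Foxn1, a transcription factor of TEC, removes a stop before a tdTomato reporter at the ROSA26 locus; the wild type male library carried no reporter. Cre is present throughout life in this line, so the reporter marks descent from a cell with Foxn1 and not current expression. Values of the 3 libraries are given below in the order Foxn1Lin female, Foxn1Lin male, wild type male. Each library was a pool of thymi, so that the spread between animals is not visible. The labels do not settle 2 points: the cell type given for wild type male is CD45-PECAM1+ although its title reads CD45-, and the protocol speaks of female mice throughout. The Foxn1Lin libraries differ in sex and the male libraries in genotype, and within each pair saturation and free RNA differed as well and cannot be told apart from these. Differences between libraries therefore have no replicate check, whereas classes of cells were compared across the 3 libraries. The libraries are the replicates of those tests and differ by design. A term for each library takes out its own level, so the p-values weigh each difference between classes against its variation across these 3 libraries.

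The libraries held between 3583 and 8616 called barcodes with 33386621 to 61258534 UMIs, and the median barcode had 4675, 7431 and 7947 UMIs. Sequencing saturation was 52.1%, 81.0% and 72.8%, and 26.5%, 12.9% and 9.46% of UMIs lay outside called barcodes, so that Foxn1Lin female stood apart as the shallowest library per barcode with the most free RNA. TEC numbered 478, 431 and 882 barcodes, EC 1907, 823 and 864, FB 1875, 864 and 1715, and mural cells 434, 449 and 356. Aire TEC were 116, 65 and 156 barcodes, Ccl21a TEC 44, 74 and 95, and Psmb11 TEC 65, 11 and 64. TEC and EC each went with a marker that the limits did not use. H2-Aa was at 2294, 2647 and 2258 CPM (UMIs of a gene for every 1000000 UMIs of the class) in TEC and at most 222 elsewhere. Cdh5 was at 876, 918 and 936 CPM in EC and at most 39.7 elsewhere. The summed FB markers, Pdgfra among them, were at 13399, 16944 and 14879 CPM in FB and 1313, 1137 and 1140 CPM in mural cells. The summed mural markers, Rgs5 and Acta2 among them, were at 14201, 16464 and 15900 CPM in mural cells and at most 193 elsewhere. Wild type male held all 4 classes, which goes with its title. Pairs of libraries shared 3 to 14 called barcode sequences.

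Promoter windows from RefSeq (GRCm38.p6, 250 bases before to 50 bases after a gene's start) were at hand for 7 of the 10 genes. They are shown for 4 of them: Nfkb2 and Traf3, whose windows hold the kB consensus, and Tnfrsf11a and Ltbr, whose windows do not. No result below draws on the windows. Capitals mark a match to the kB consensus on either strand, the 10-base motif bound by NF-kB dimers, and the 2 matches in the first Nfkb2 window do not overlap. The windows are printed from 5′ to 3′ on the strand of the gene.
Nfkb2, chr19:46304487-46304786, plus strand: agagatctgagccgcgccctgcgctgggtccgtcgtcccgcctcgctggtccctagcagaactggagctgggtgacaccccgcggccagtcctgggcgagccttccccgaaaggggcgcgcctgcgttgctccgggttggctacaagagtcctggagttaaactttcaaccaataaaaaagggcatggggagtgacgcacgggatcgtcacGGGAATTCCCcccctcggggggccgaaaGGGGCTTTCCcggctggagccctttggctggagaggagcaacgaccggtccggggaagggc
Nfkb2, chr19:46305445-46305744, plus strand: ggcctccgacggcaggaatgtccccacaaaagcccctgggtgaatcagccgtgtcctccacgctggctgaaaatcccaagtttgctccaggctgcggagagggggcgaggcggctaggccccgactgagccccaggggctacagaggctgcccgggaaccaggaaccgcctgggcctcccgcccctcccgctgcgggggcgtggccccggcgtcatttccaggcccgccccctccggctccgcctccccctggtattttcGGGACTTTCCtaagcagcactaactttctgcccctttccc
Traf3, chr12:111166120-111166419, plus strand: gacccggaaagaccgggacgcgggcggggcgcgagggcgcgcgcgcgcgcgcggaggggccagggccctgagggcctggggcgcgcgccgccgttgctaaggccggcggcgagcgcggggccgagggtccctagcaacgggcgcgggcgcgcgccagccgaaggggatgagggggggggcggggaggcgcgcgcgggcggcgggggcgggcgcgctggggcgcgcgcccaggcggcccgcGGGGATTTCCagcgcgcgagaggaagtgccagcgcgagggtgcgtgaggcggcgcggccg
Tnfrsf11a, chr1:105780473-105780772, plus strand: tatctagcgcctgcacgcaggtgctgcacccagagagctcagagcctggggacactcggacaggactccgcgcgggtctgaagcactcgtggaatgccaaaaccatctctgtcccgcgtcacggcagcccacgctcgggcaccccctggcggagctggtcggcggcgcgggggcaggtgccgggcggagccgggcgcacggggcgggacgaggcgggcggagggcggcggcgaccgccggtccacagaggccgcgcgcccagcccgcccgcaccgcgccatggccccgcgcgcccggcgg
Ltbr, chr6:125313836-125314135, minus strand: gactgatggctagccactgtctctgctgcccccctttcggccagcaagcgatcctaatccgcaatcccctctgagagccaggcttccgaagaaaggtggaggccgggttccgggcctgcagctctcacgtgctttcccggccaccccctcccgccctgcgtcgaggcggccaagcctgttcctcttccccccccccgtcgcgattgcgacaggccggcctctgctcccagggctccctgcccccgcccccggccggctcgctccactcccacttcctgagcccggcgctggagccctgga
Another Nfkb2 window overlaps the one at chr19:46305445-46305744 and holds the same match. In all, 4 of 9 windows of these genes held a match, and 3 of those 4 belonged to Nfkb2. Of 32851 promoter windows in the table, 1907 (5.80%) held one. A match is a stretch of letters and not a measured binding site. The windows of Tnfsf11, Traf6 and Map3k14 held none, and Tnfrsf11b, Cd40 and Relb are named only.

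Across the 4 classes, Tnfrsf11a, Tnfrsf11b, Tnfsf11 and Cd40 had the widest differences. Tnfrsf11a was abundant in TEC and EC and close to absent from FB. Tnfrsf11b and Cd40 were highest in TEC in every library. Ltbr differed little between classes, and Tnfsf11 was detected mainly in FB of wild type male. Levels were CPM with exact 95% Poisson intervals that cover counting error only.

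**Figure D1:**
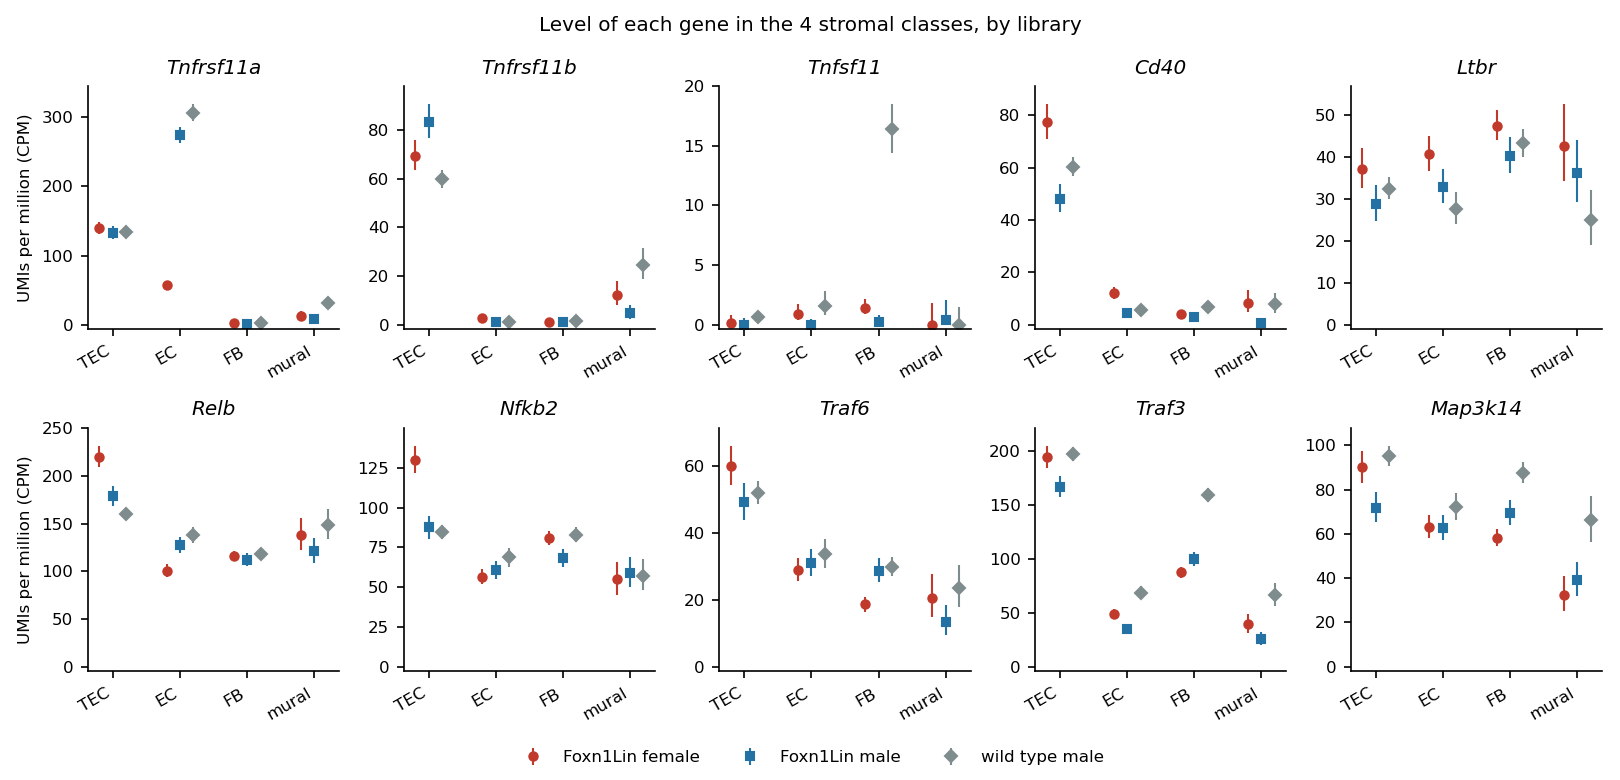
Level of each of the 10 genes in TEC, EC, FB and mural cells (x axis) as CPM (y axis, linear from 0 and scaled for each gene), with 1 point per library and bars for the exact 95% Poisson interval. Tnfrsf11a lay at 133 to 139 CPM in TEC and at most 2.73 CPM in FB, whereas Ltbr lay between 24.9 and 47.3 CPM in all classes.

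Tnfrsf11a, the receptor of RANK ligand (chromosome 1, 105780718 to 105847981, plus strand), was at 139 (95% interval 131 to 149), 133 (124 to 142) and 134 (128 to 139) CPM in TEC. In EC it was at 56.7 (52.1 to 61.6), 274 (262 to 286) and 307 (294 to 319) CPM. In mural cells it was at 13.2, 8.38 and 31.8 CPM, and in FB at 2.73, 0.695 and 2.23 CPM. The order from EC through TEC and mural cells to FB held in both male libraries, and in Foxn1Lin female TEC lay above EC. TEC and EC therefore overlapped across libraries, whereas mural cells lay below both and FB below mural cells in each library. With each barcode thinned to 2000 UMIs, 20.8%, 15.1% and 16.8% of TEC and 5.17%, 21.4% and 27.6% of EC had a Tnfrsf11a UMI, against 0.543%, 0.232% and 0.71% of FB. Without thinning, these shares were 42.7%, 33.2% and 39.6% of TEC and 8.55%, 36.8% and 43.6% of EC, against 1.81%, 0.579% and 1.46% of FB. Median depth was 10988, 12387 and 15993 UMIs per TEC, 3889, 7355 and 6970 per EC and 7445, 9388 and 8230 per FB.

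Between TEC and FB the difference in Tnfrsf11a was 5.79 ± 0.72 on the log2 scale (SE, n = 3 libraries; edgeR quasi-likelihood test with Benjamini-Hochberg adjustment over 16620 genes, adjusted p = 0.000159), and between TEC and mural cells it was 2.75 ± 0.64 (edgeR quasi-likelihood test, adjusted p = 0.00639). The difference between FB and EC was -6.68 ± 0.75 and that between EC and mural cells 3.64 ± 0.66. FB also lay below mural cells by a log2 difference of -3.04 ± 0.73 (edgeR quasi-likelihood test, adjusted p = 0.0132), a call that was lost without Foxn1Lin male (adjusted p = 0.0577) or without wild type male (adjusted p = 0.188). Droplets without a cell had Tnfrsf11a at 37.3, 81.2 and 102 CPM, above FB and mural cells and below TEC and EC in every library, and the part of free RNA in the difference between FB and mural cells was not tested. TEC and EC did not differ past the threshold (-0.88 ± 0.57, edgeR quasi-likelihood test, adjusted p = 0.215). This call rested on Foxn1Lin female, without which TEC lay below EC by a log2 difference of -1.50 (adjusted p = 0.00602), and when barcodes with any UMI of another class's marker were left out the difference was -1.34 (adjusted p = 0.0455).

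Tnfrsf11b, which encodes the decoy receptor osteoprotegerin (chromosome 15, 54250619 to 54278484, minus strand), was at 69.5 (63.4 to 76.0), 83.5 (76.6 to 90.8) and 59.7 (56.3 to 63.4) CPM in TEC. In mural cells it was at 12.3, 4.74 and 24.5 CPM. EC had 0.919 to 2.79 CPM and FB 1.04 to 1.51 CPM. TEC lay above each other class in every library, and mural cells lay above EC and FB. The log2 difference was 5.09 ± 0.52 between TEC and EC (edgeR quasi-likelihood test, adjusted p = 4.83e-05), 5.51 ± 0.52 between TEC and FB, and 2.16 ± 0.46 between TEC and mural cells (edgeR quasi-likelihood test, adjusted p = 0.00402). The last was lost under stricter class limits (1.85, adjusted p = 0.0683). Tnfrsf11b was also lower in FB and in EC than in mural cells, by log2 differences of -3.35 ± 0.54 and -2.93 ± 0.55 (edgeR quasi-likelihood test, adjusted p = 0.00181 and 0.00259). In droplets without a cell, which sample free RNA, Tnfrsf11b was at 16.6, 53.3 and 60.1 CPM, so the levels in EC, FB and mural cells lay below that of free RNA in every library and the level in TEC of wild type male (59.7) was close to it. The part of free RNA in the differences among EC, FB and mural cells was not tested.

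Tnfsf11, which encodes RANK ligand (chromosome 14, 78277445 to 78308043, minus strand), was sparse. FB had 21, 2 and 250 UMIs, which is 1.43 (0.888 to 2.19), 0.232 (0.0281 to 0.837) and 16.4 (14.4 to 18.5) CPM. TEC had 1, 0 and 12 UMIs, EC 9, 0 and 12, and mural cells 0, 1 and 0. In droplets without a cell Tnfsf11 was at 4.08, 2.41 and 4.65 CPM, so FB of wild type male lay above free RNA, whereas FB of both Foxn1Lin libraries and TEC, EC and mural cells of every library lay below it. Its 250 UMIs came from 53 of 1715 barcodes, the highest with 32 UMIs. Thinned to 2000 UMIs, 1.42% of FB barcodes in wild type male had a UMI, against 0.217% in Foxn1Lin female and 0% in Foxn1Lin male, while in mural cells, with a median of 6005 UMIs in wild type male, the share was 0%. TEC lay below FB by a log2 difference of -4.39 ± 0.93 (edgeR quasi-likelihood test, adjusted p = 0.00322), a fitted value that depends on the prior count since TEC of Foxn1Lin male were at 0. Tnfsf11 did not pass the filter on low counts without wild type male, with Ptprc barcodes left out or in a fit on TEC and FB alone. The call was lost under stricter class limits (-2.37, adjusted p = 0.111) and when Epcam barcodes of 2 classes were kept as TEC (-2.28, adjusted p = 0.119). FB lay above mural cells by 4.80 ± 1.38 (edgeR quasi-likelihood test, adjusted p = 0.0279), a fitted value since 2 of the mural sums were at 0. That call was lost with no library block (5.29, adjusted p = 0.0974), under stricter class limits (4.95, adjusted p = 0.0693) and with Epcam barcodes of 2 classes kept as TEC (4.91, adjusted p = 0.0800). TEC and EC did not differ past the threshold (-2.25 ± 1.01, edgeR quasi-likelihood test, adjusted p = 0.0841).

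The FB barcodes with a Tnfsf11 UMI in wild type male also had more transcript of Ccl19, Clu, Cxcl12 and Col1a1. This is a description for which the split was chosen after the values were seen. Ccl19, a ligand of CCR7 that draws mature thymocytes to the medulla, was at 961 CPM in those 53 barcodes and 421 CPM in the 1662 FB barcodes without a Tnfsf11 UMI. Clu, which encodes clusterin, was at 2428 and 233 CPM, and Cxcl12 at 440.1 and 195 CPM. Col1a1, a collagen gene of fibroblasts, was at 915 and 572 CPM, and Ptprc, which encodes CD45, had 0 UMIs in the 53 barcodes, which allows up to 3.97 CPM. Their median depth was 13506 UMIs per barcode against 8131, and the part of depth in these values was not tested. In Foxn1Lin female the 10 FB barcodes with a Tnfsf11 UMI had Ccl19 at 1254 CPM against 193 and Cxcl12 at 2619 CPM against 256, while Col1a1 ran the other way at 181 CPM against 521, and 2 of these 10 barcodes also had Ptprc. In the 2 such barcodes of Foxn1Lin male Ccl19 was at 623 CPM against 657.

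Cd40, which encodes the receptor of CD40 ligand (chromosome 2, 165055627 to 165072948, plus strand), was at 77.6 (71.1 to 84.5), 48.2 (43.0 to 53.9) and 60.3 (56.8 to 64.0) CPM in TEC. In EC it was at 12.0, 4.46 and 5.73 CPM, in FB at 3.96, 2.78 and 6.74 CPM and in mural cells at 8.33, 0.729 and 7.75 CPM. TEC lay above the other classes in every library, and EC, FB and mural cells overlapped and did not differ past the threshold from each other. In empty droplets Cd40 was at 25.9, 32.2 and 47.0 CPM, above those 3 classes and below TEC in every library. The log2 difference was 2.77 ± 0.39 between TEC and EC, 3.49 ± 0.40 between TEC and FB (edgeR quasi-likelihood test, adjusted p = 9.85e-05) and 3.30 ± 0.45 between TEC and mural cells. Cd40 is also a gene of B cells and dendritic cells. The summed level of the B lineage list was 629, 29.7 and 29.1 CPM in TEC and that of the myeloid and dendritic list 259.5, 149 and 109.8 CPM, and Ptprc was present in 13.2%, 2.32% and 3.63% of TEC barcodes. The 3 calls on Cd40 held when barcodes with a Ptprc UMI were left out, with differences of 2.75, 3.56 and 3.67.

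Ltbr, which encodes the lymphotoxin beta receptor (chromosome 6, 125306571 to 125313885, minus strand), differed less between classes than the other receptor genes. It was at 37.1, 28.7 and 32.4 CPM in TEC, 40.6, 32.8 and 27.6 in EC, 47.3, 40.2 and 43.1 in FB and 42.6, 36.1 and 24.9 in mural cells. FB lay highest in every library, and TEC, EC and mural cells overlapped. TEC lay below FB by a log2 difference of -0.74 ± 0.14 (edgeR quasi-likelihood test, adjusted p = 0.00204) and below EC by -0.39 ± 0.15 (adjusted p = 0.0427). The second of these was lost in 8 of 15 alternatives, among them the fit scaled by library totals alone (-0.03). FB did not differ past the threshold from EC (0.35 ± 0.14, adjusted p = 0.0819) or mural cells (0.37 ± 0.15, adjusted p = 0.0987), all by edgeR's quasi-likelihood test. In empty droplets Ltbr was at 37.8, 42.4 and 33.6 CPM, above TEC in every library and above EC and mural cells in both male libraries, and the part of free RNA in these differences was not tested.

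The adaptor genes differed between classes in a graded manner. Traf3, whose product restrains NIK (chromosome 12, 111166370 to 111267153, plus strand), was at 194, 167 and 197 CPM in TEC, 87.4, 99.9 and 159 in FB, 49.2, 34.9 and 68.7 in EC and 39.2, 25.9 and 66.5 in mural cells. This order from TEC to mural cells was the same in each library. TEC lay above EC by a log2 difference of 1.57 ± 0.20 (edgeR quasi-likelihood test, adjusted p = 0.000199) and above mural cells by 1.87 ± 0.21. FB lay above EC by 1.15 ± 0.20 and above mural cells by 1.45 ± 0.21. TEC against FB (0.42 ± 0.20, adjusted p = 0.102) and EC against mural cells (0.30 ± 0.21, adjusted p = 0.291) did not pass the threshold of edgeR's quasi-likelihood test. Traf3 was at 76.6, 94.2 and 121 CPM in empty droplets, above EC and mural cells and below TEC and FB in every library, and the part of free RNA was not tested.

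Traf6, the adaptor of the canonical branch (chromosome 2, 101678429 to 101701669, plus strand), was at 60.1, 49.3 and 52.1 CPM in TEC, against 28.9 to 33.7 in EC, 18.6 to 30.0 in FB and 13.5 to 23.6 in mural cells. TEC lay highest in every library. TEC passed the threshold against mural cells (1.19 ± 0.22, edgeR quasi-likelihood test, adjusted p = 0.00206) and against FB (0.75 ± 0.20, adjusted p = 0.0113), though not against EC (0.42 ± 0.20, adjusted p = 0.103). The call against FB was lost without Foxn1Lin female (0.47, adjusted p = 0.0701) and without wild type male (0.87, adjusted p = 0.0595). EC lay above mural cells by 0.77 ± 0.22 (edgeR quasi-likelihood test, adjusted p = 0.0225), and this was lost without Foxn1Lin male (0.54, adjusted p = 0.187) and without wild type male (0.91, adjusted p = 0.0978). Empty droplets had Traf6 at 27.4, 34.9 and 37.4 CPM, above FB and mural cells in every library and above EC in both male libraries.

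Map3k14, which encodes NIK (chromosome 11, 103219762 to 103267472, minus strand), was at 90.1, 71.9 and 95.2 CPM in TEC, 63.2, 62.5 and 72.3 in EC, 58.3, 69.5 and 87.7 in FB and 32.4, 39.0 and 66.1 in mural cells. Mural cells lay lowest in every library, below TEC by a log2 difference of 0.62 ± 0.18, below FB by 0.68 ± 0.18 and below EC by 0.61 ± 0.18 (edgeR quasi-likelihood test, adjusted p = 0.0195, 0.0219 and 0.0258). Each of these 3 calls was lost without Foxn1Lin male, with differences of 0.66, 0.64 and 0.55 and adjusted p of 0.119, 0.181 and 0.219. Those of TEC and EC were also lost without Foxn1Lin female (0.34 and 0.44, adjusted p = 0.116 and 0.0678). In empty droplets Map3k14 was at 67.0, 46.3 and 62.3 CPM, below TEC in every library, and above mural cells in both Foxn1Lin libraries.

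Relb, a subunit of the noncanonical dimer (chromosome 7, 19606217 to 19629438, minus strand), was at 220.1, 178 and 159.8 CPM in TEC, 101, 127 and 138 in EC, 116, 112 and 118 in FB and 138, 121 and 149 in mural cells. Nfkb2, which encodes p100 (chromosome 19, 46304320 to 46312385, plus strand), was at 130.0, 87.5 and 84.5 CPM in TEC and between 54.9 and 82.8 CPM in the other classes. Empty droplets had Nfkb2 at 71.0, 66.2 and 76.0 CPM, above EC and mural cells in every library, and Relb at 74.6, 104 and 104 CPM, below all 4 classes. In CPM, TEC lay highest for both genes in each library, yet neither gene passed the threshold of edgeR's quasi-likelihood test in any of the 6 comparisons between classes. The nearest was Nfkb2 between TEC and mural cells (0.49 ± 0.19, edgeR quasi-likelihood test, adjusted p = 0.0537), which passed in 8 of 15 alternatives. These values are read against the scaling, because TMM factors were 1.16 to 1.23 in TEC and 0.887 to 0.997 elsewhere. With library totals alone, Relb was higher in TEC than in EC (0.61), FB (0.69) and mural cells (0.45) and Nfkb2 higher than in EC (0.69) and mural cells (0.80), each past the threshold of edgeR's quasi-likelihood test, and Traf3 was then higher in TEC than in FB (0.74) and Traf6 than in EC (0.79).

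Counted over the 10 genes, 4 passed the threshold between TEC and EC, 3 of them higher in TEC, where 57.4% of all genes tested passed and 30.8% were higher in TEC. Between TEC and FB 6 passed, 4 higher in TEC, where 56.1% of all genes passed and 29.5% were higher in TEC. Between TEC and mural cells 6 passed, all higher in TEC, where 50.6% of all genes passed. The counts were 2 between FB and EC, where 42.0% of all genes passed, 5 between FB and mural cells, where 29.9% passed, and 4 between EC and mural cells, where 39.8% passed. The genes' share was within 4 percentage points of that of all genes between TEC and FB and between EC and mural cells, below it between TEC and EC and between FB and EC, and above it in the comparisons of mural cells with TEC and FB. The median log2 difference of the 10 genes was 0.28 between TEC and EC, 0.39 between TEC and FB and 0.91 between TEC and mural cells, and that of all genes was 0.07, 0.05 and 0.09. With library totals alone the median of all genes moved to 0.44, 0.38 and 0.41, and the share of calls that were higher in TEC moved from 53.6%, 52.6% and 52.1% to 71.0%, 70.1% and 69.4%.

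The EC fraction was looked at more closely for Tnfrsf11a, because Foxn1Lin female and the male libraries differed in it. Selp, which encodes P-selectin, and Ackr1, an atypical chemokine receptor, are known genes of venular endothelium. The split was chosen after the values were seen and is a description with no test. EC barcodes with a Selp UMI had Tnfrsf11a at 301 (272 to 332), 529 (505 to 554) and 608 (581 to 636) CPM, and those without at 17.95 (15.2 to 21.1), 50.9 (44.2 to 58.3) and 86.1 (77.6 to 95.3) CPM. Tnfrsf11a was thus concentrated in Selp barcodes in every library, and in both parts it was lowest in Foxn1Lin female. Droplets without a cell had Tnfrsf11a at 37.3, 81.2 and 102 CPM, in the same order of libraries. That level lay above EC without a Selp UMI and below Selp barcodes in every library, and its part was not tested. The Selp barcodes made up 8.60%, 36.2% and 32.8% of EC. With at least 2 Ackr1 UMIs, the levels were 553, 601 and 767 CPM against 26.2, 102 and 141 CPM, in 2.36%, 23.3% and 18.2% of EC. Median depth was 6204, 10572 and 9940 UMIs in Selp barcodes and 3777, 6177 and 5785 in the remainder, and its part in the split was not tested.

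**Figure D2:**
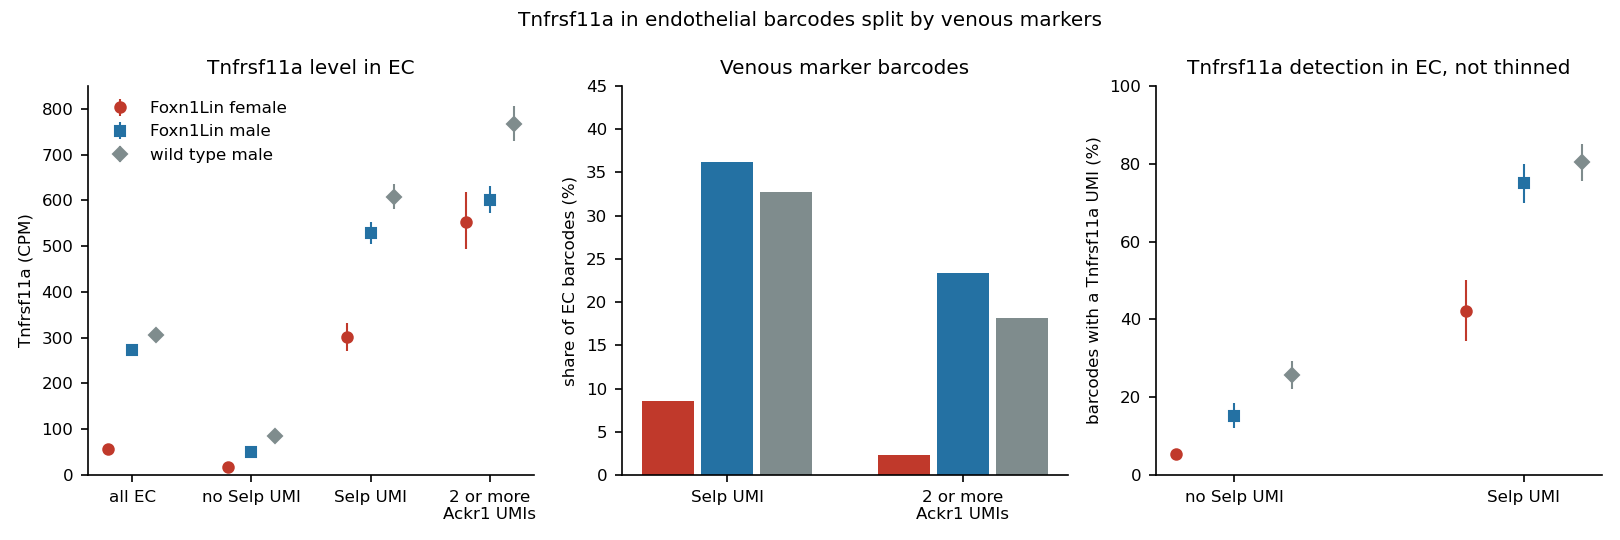
Left, Tnfrsf11a level (CPM) in all EC, in EC without and with a Selp UMI and in EC with 2 or more Ackr1 UMIs, by library, with exact 95% Poisson intervals; middle, the share of EC barcodes (%) with these markers; right, the share (%) with a Tnfrsf11a UMI, not thinned, with exact 95% binomial intervals. In every library the Selp barcodes (301, 529 and 608 CPM) lay above those without Selp (17.95, 50.9 and 86.1 CPM). Foxn1Lin female was lowest in each part, and EC without Selp lay below the level of empty droplets in every library.

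Cd40, Relb and Nfkb2 differed less across this split. In Selp barcodes Cd40 was at 15.1, 4.51 and 6.31 CPM and in the remainder of EC at 11.5, 4.42 and 5.31 CPM, and the intervals overlapped within each library. Relb was at 133, 140.5 and 147 CPM in Selp barcodes and 95.6, 116 and 131 CPM in the remainder, and Nfkb2 at 78.3, 74.7 and 77.0 CPM against 52.8, 48.4 and 62.5. Both were higher in Selp barcodes in every library, and their intervals were separate in both Foxn1Lin libraries and overlapped in wild type male.

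Within TEC, the genes of the axis separated the Aire TEC from the Psmb11 TEC and the Ccl21a TEC. Psmb11 encodes the proteasome subunit of cortical TEC and Ccl21a a chemokine of medullary TEC with low AIRE. In Aire TEC, Tnfrsf11a, Tnfrsf11b, Cd40, Relb, Nfkb2, Traf6 and Traf3 were higher than in both other kinds of TEC, Ltbr was lower, and Map3k14 did not differ past the threshold. Of the 9 genes tested, 8 passed between Aire TEC and Psmb11 TEC, 7 of them higher in Aire TEC, where 46.5% of all genes passed and 24.9% were higher in Aire TEC. The same counts of 8 and 7 were found between Aire TEC and Ccl21a TEC, where 40.3% of all genes passed and 21.5% were higher. The median log2 difference of the 9 genes was 1.85 and 1.80, and that of all 13033 genes 0.02 and 0.03. Both comparisons share the Aire TEC sums. Both counts were 8 under all 17 alternatives. Tnfsf11 was not tested, with 7 UMIs in Aire TEC of wild type male and 0 in the other Aire TEC.

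**Figure D3:**
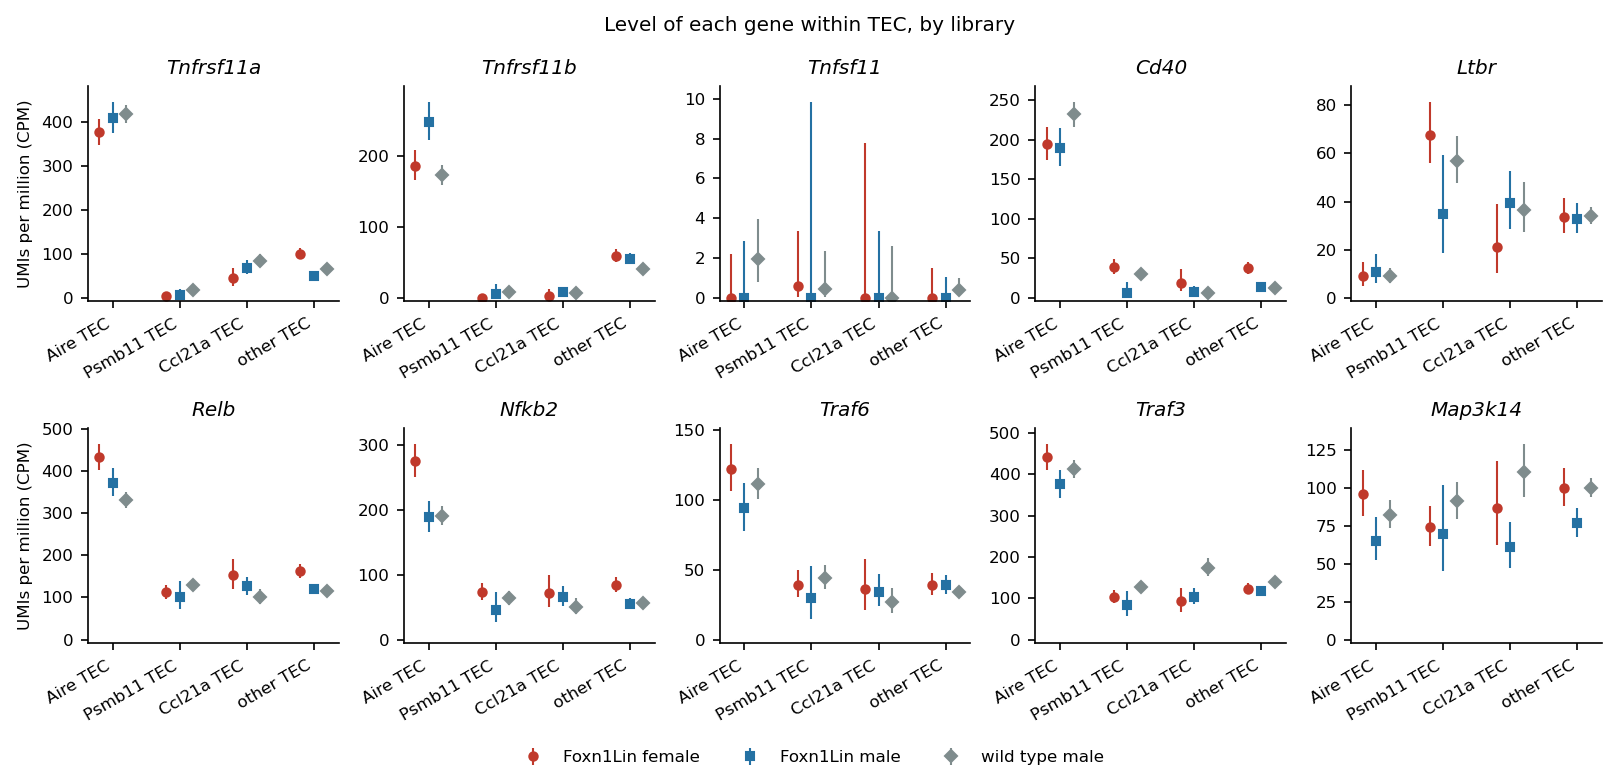
Level of each of the 10 genes in Aire TEC, Psmb11 TEC, Ccl21a TEC and other TEC (x axis) as CPM (y axis, linear from 0 and scaled for each gene), 1 point per library with the exact 95% Poisson interval. Tnfrsf11a lay at 377 to 419 CPM in Aire TEC and at most 16.9 CPM in Psmb11 TEC, and Ltbr ran the other way with 8.82 to 10.7 CPM in Aire TEC and 34.7 to 67.8 CPM in Psmb11 TEC.

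Tnfrsf11a was at 377 (348 to 407), 411 (377 to 447) and 419 (398 to 440) CPM in Aire TEC. In Ccl21a TEC it was at 44.4, 68.4 and 83.7 CPM, in other TEC at 99.7, 48.7 and 64.2 CPM and in Psmb11 TEC at 3.002, 5.35 and 16.9 CPM, the first from 5 UMIs and the second from 2. Aire TEC lay highest and Psmb11 TEC lowest in every library, and Ccl21a TEC and other TEC overlapped. Aire TEC lay above Psmb11 TEC by a log2 difference of 5.50 ± 0.46 (edgeR quasi-likelihood test, adjusted p = 8.8e-06) and above Ccl21a TEC by 2.62 ± 0.37 (adjusted p = 0.000271). Thinned to 2000 UMIs, 48.3%, 43.1% and 48.1% of Aire TEC had a UMI, against 0%, 0% and 6.35% of Psmb11 TEC, and without thinning the shares were 88.8%, 84.6% and 94.9% against 7.69%, 18.2% and 26.6%. Median depth was 13240, 20685 and 21424 UMIs per Aire TEC and 21590, 23732 and 32660 per Psmb11 TEC, so the deeper barcodes had the fewer Tnfrsf11a UMIs.

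Tnfrsf11a was the 1 gene of the 9 that passed the threshold between Ccl21a TEC and Psmb11 TEC, where 10.5% of all genes passed. It was higher in Ccl21a TEC by a log2 difference of 2.87 ± 0.47 (edgeR quasi-likelihood test, adjusted p = 0.00444). Beside it, the empty-droplet level of Tnfrsf11a (37.3, 81.2 and 102 CPM) lay above Psmb11 TEC in every library and above Ccl21a TEC in both male libraries, and its part in this difference was not tested. Cd40 had the next-largest difference and ran the other way without passing (-1.44 ± 0.53, edgeR quasi-likelihood test, adjusted p = 0.109). Ltbr (-0.70 ± 0.29) and Tnfrsf11b (0.37 ± 0.75) did not pass either, and the other 5 genes lay between -0.26 and 0.27.

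Cd40 was at 195 (174 to 217), 189.6 (167 to 215) and 232 (217 to 248) CPM in Aire TEC. In Psmb11 TEC it was at 38.4, 5.35 and 29.5 CPM, the second from 2 UMIs, and in Ccl21a TEC at 19.0, 7.29 and 6.33 CPM. Aire TEC lay above the other kinds of TEC in every library. The log2 difference was 3.08 ± 0.41 against Psmb11 TEC (edgeR quasi-likelihood test, adjusted p = 0.000132) and 4.52 ± 0.47 against Ccl21a TEC (adjusted p = 3.85e-05). A UMI of Ptprc was found in 32.3%, 0% and 17.2% of Psmb11 TEC and in 11.2%, 4.62% and 2.56% of Aire TEC. With those barcodes left out, the differences in Cd40 were 3.48 and 4.63, both still past the threshold. The summed hematopoietic list was at 1504, 1555 and 1279.8 CPM in Aire TEC and 0 to 277 CPM in Psmb11 TEC. The myeloid and dendritic list was at 611, 486 and 357 CPM against 2.67 to 39.0. The part of both lists in the results on Aire TEC was not tested beyond this.

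Tnfrsf11b was at 187, 249 and 173 CPM in Aire TEC, 59.0, 55.3 and 40.5 in other TEC and 2.11, 7.29 and 7.03 in Ccl21a TEC. In Psmb11 TEC there were 0, 2 and 19 UMIs, the first of which allows up to 1.80 CPM, and the others gave 5.35 and 8.01 CPM. The order from Aire TEC through other TEC to both remaining kinds held in every library. Empty droplets had Tnfrsf11b at 16.6, 53.3 and 60.1 CPM, below Aire TEC and above Ccl21a TEC and Psmb11 TEC in every library. Other TEC lay above that level in Foxn1Lin female, close to it in Foxn1Lin male and below it in wild type male. The part of free RNA in this order was not tested. The log2 difference of Aire TEC was 5.44 ± 0.53 against Psmb11 TEC, a fitted value that depends on the prior count where a library is at 0, and 5.07 ± 0.53 against Ccl21a TEC (edgeR quasi-likelihood test, adjusted p = 1.91e-05 and 3.63e-05). In 72.4%, 69.2% and 84.0% of Aire TEC barcodes both Tnfrsf11a and Cd40 had a UMI, in 39.7%, 44.6% and 54.5% all of Tnfrsf11a, Cd40 and Tnfrsf11b did, and in 2.59%, 6.15% and 1.28% none did, without thinning.

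Ltbr was the gene that ran against the others. It was at 8.93 (5.00 to 14.7), 10.7 (5.87 to 18.0) and 8.82 (6.03 to 12.4) CPM in Aire TEC, from 15, 14 and 32 UMIs. In Psmb11 TEC it was at 67.8, 34.7 and 56.9 CPM, in Ccl21a TEC at 21.1, 39.2 and 36.6 CPM and in other TEC at 33.5, 32.8 and 33.9 CPM. Aire TEC lay below every other kind of TEC in every library. The log2 difference was -2.51 ± 0.31 against Psmb11 TEC (edgeR quasi-likelihood test, adjusted p = 8.28e-05) and -1.81 ± 0.32 against Ccl21a TEC (adjusted p = 0.00111), and over the alternatives it ranged from -2.83 to -2.21 and from -1.96 to -1.63. The level in empty droplets lay above Aire TEC in every library, above Ccl21a TEC and other TEC in both Foxn1Lin libraries and above Psmb11 TEC in Foxn1Lin male, and its part in these differences was not tested.

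Relb and Nfkb2, which act downstream of the receptors, followed the same division. Relb was at 433, 373 and 332 CPM in Aire TEC, against 113, 102 and 129 in Psmb11 TEC and 152, 127 and 101 in Ccl21a TEC. Nfkb2 was at 276, 189 and 191 CPM in Aire TEC, against 73.8, 45.4 and 63.7 in Psmb11 TEC and 71.9, 65.6 and 50.6 in Ccl21a TEC. For both genes Aire TEC lay above the remaining kinds in every library, and Foxn1Lin female lay highest within Aire TEC. The myeloid and dendritic list given beside Cd40 was also highest there, and its part in the Relb and Nfkb2 levels was not tested. Between Aire TEC and Psmb11 TEC the log2 difference was 1.76 ± 0.18 for Relb and 1.85 ± 0.18 for Nfkb2 (edgeR quasi-likelihood test, adjusted p = 2.24e-05 and 1.92e-05), and against Ccl21a TEC it was 1.62 ± 0.17 and 1.81 ± 0.18.

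Traf3 was at 441, 376 and 412 CPM in Aire TEC and 103, 82.8 and 127 CPM in Psmb11 TEC, and Traf6 at 122, 93.6 and 111 CPM against 39.0, 29.4 and 44.3. The groups did not overlap for either gene. The log2 difference was 2.04 ± 0.19 for Traf3 and 1.54 ± 0.20 for Traf6 (edgeR quasi-likelihood test, adjusted p = 1.75e-05 and 0.000137), and 1.77 ± 0.19 and 1.80 ± 0.21 against Ccl21a TEC. Map3k14, by contrast, was at 95.8, 65.2 and 82.4 CPM in Aire TEC, 73.8, 69.5 and 91.1 in Psmb11 TEC and 86.7, 61.1 and 110.4 in Ccl21a TEC. These ranges overlapped, and the log2 difference of Map3k14 was 0.12 ± 0.17 and -0.05 ± 0.17 (edgeR quasi-likelihood test, adjusted p = 0.589 and 0.844), with -0.12 to 0.38 and -0.13 to 0.24 over the alternatives.

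**Figure D4:**
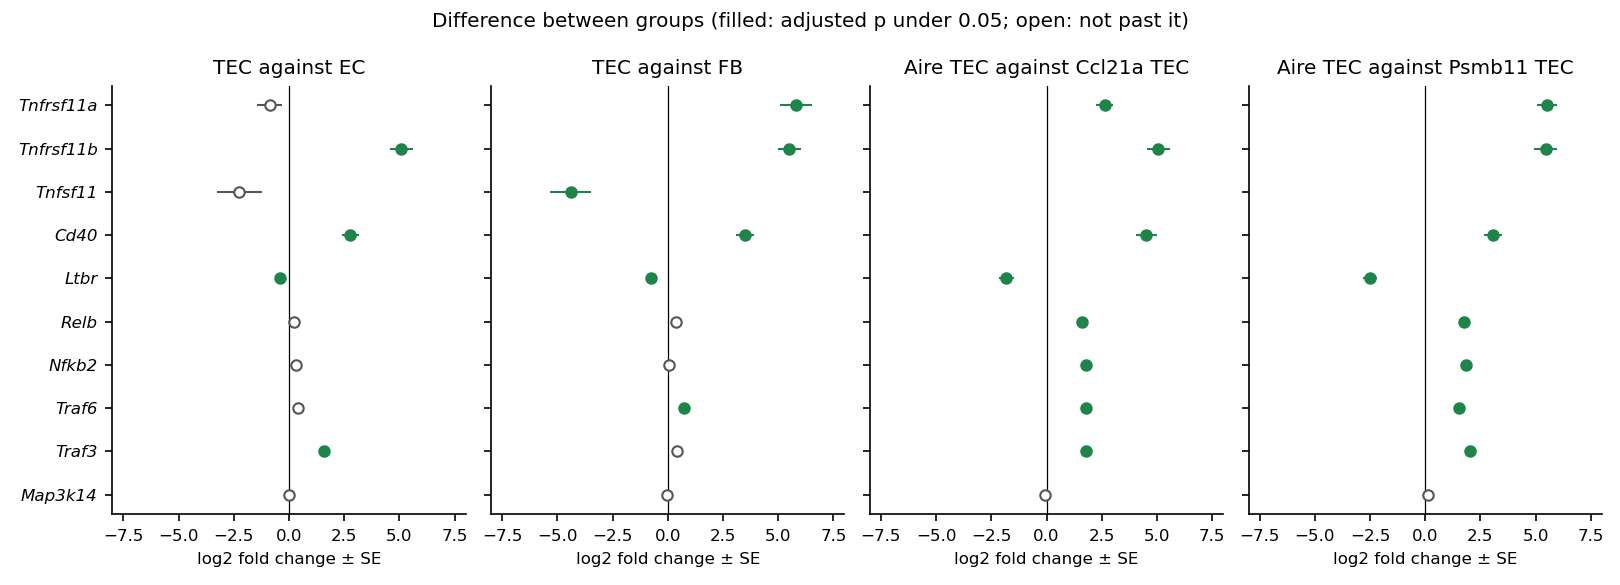
Log2 difference of each gene (x axis, bars ± SE) for TEC against EC, TEC against FB, Aire TEC against Ccl21a TEC and Aire TEC against Psmb11 TEC, from edgeR's quasi-likelihood fit over 3 libraries, with filled points past the adjusted threshold. In Aire TEC against Psmb11 TEC, 7 of 9 genes lay to the right, from 1.54 for Traf6 to 5.50 for Tnfrsf11a, and Ltbr lay at -2.51.

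Graded by the number of Aire UMIs, the receptors took different courses. In TEC with 0, 1, 2 to 4, and 5 or more Aire UMIs, Tnfrsf11a in wild type male was at 47.7, 144, 443 and 409.9 CPM, and Cd40 at 13.4, 31.6, 193 and 238 CPM. Ltbr was at 39.8, 26.2, 12.3 and 9.16 CPM in the same barcodes. In Foxn1Lin female the values were 51.6, 96.1, 318 and 372 CPM for Tnfrsf11a, 29.7, 80.1, 107 and 209 for Cd40 and 44.9, 59.7, 31.0 and 5.44 for Ltbr. In Foxn1Lin male, where the bin of 1 Aire UMI held 18 barcodes, Tnfrsf11a was at 40.7, 242, 435 and 407 CPM. Tnfrsf11b was at 28.3, 42.2, 115 and 191 CPM in Foxn1Lin female, at 24.4, 386, 368 and 195 CPM in Foxn1Lin male and at 21.1, 116, 224 and 152 CPM in wild type male, so that the bin with its highest level differed between libraries. Tnfrsf11a had thus reached 318 to 443 CPM at 2 to 4 Aire UMIs, whereas Cd40 was higher again at 5 or more in each library, and Map3k14 stayed between 67.8 and 141 CPM in all bins and libraries. Depth differed between the bins, with a median of 9503 to 13996 UMIs at 0 Aire UMIs and 14806 to 23208 at 5 or more, and its part was not tested.

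Many Aire barcodes also passed the limit of a second class and were dropped by the rule. These were 42, 34 and 138 barcodes, or 25.8%, 32.4% and 45.5% of all barcodes past both the Epcam and the Aire limit. With the Epcam barcodes of 2 classes kept as TEC, an alternative chosen after the data were seen, 8 genes still passed in both comparisons of Aire TEC, and between Ccl21a TEC and Psmb11 TEC Tnfrsf11b (2.06) and Ltbr (-0.63) passed beside Tnfrsf11a.

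Between libraries, a gene was counted where its CPM differed by 2-fold or more and both libraries together had at least 20 UMIs. With 1 library per group there is no test, and intervals are exact conditional binomial intervals for counting error. In TEC, 0 of 9 genes passed 2-fold between Foxn1Lin female and Foxn1Lin male, where 18.0% of all genes did, and 0 of 9 between Foxn1Lin male and wild type male, where 15.2% did. The ratios ran from 0.833 for Tnfrsf11b to 1.61 for Cd40 in the first pair and from 0.755 for Map3k14 to 1.40 for Tnfrsf11b in the second. Nfkb2 in TEC was 1.49-fold (1.34 to 1.65) as high in Foxn1Lin female as in Foxn1Lin male.

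In EC, 3 of 9 genes passed 2-fold between Foxn1Lin female and Foxn1Lin male, where 19.1% of all genes did. These were Tnfrsf11a with a ratio of 0.207 (0.188 to 0.228), Tnfrsf11b with 3.03 (1.29 to 8.25) from 27 and 7 UMIs, and Cd40 with 2.68 (1.82 to 4.06). Between Foxn1Lin male and wild type male 0 of 8 passed, where 10.4% of all genes did, and Tnfrsf11a had a ratio of 0.892 (0.840 to 0.947). The B lineage list was at 481 CPM in EC of Foxn1Lin female against 10.4 and 19.1 in the male libraries. The TEC list was at 360.1 CPM in EC of Foxn1Lin female and 147 in those of Foxn1Lin male and the FB list at 888 and 66.8 CPM, and the part of these lists in the Cd40 and Tnfrsf11b ratios was not tested.

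In FB, 2 of 10 genes passed between Foxn1Lin female and Foxn1Lin male, where 19.1% of all genes did, namely Tnfrsf11a with 3.93 (1.66 to 11.3) from 40 and 6 UMIs and Tnfsf11 with 6.19 (1.51 to 54.4) from 21 and 2 UMIs. The B lineage list was at 758 and 148 CPM in these FB and Ptprc was present in 7.04% and 1.04% of barcodes. With Ptprc barcodes left out the ratios were 3.81 and 4.45, and Tnfsf11 then had fewer than 20 UMIs and was not counted. Between Foxn1Lin male and wild type male 3 of 10 passed, where 11.0% of all genes did. Tnfsf11 had a ratio of 0.0142 (0.00171 to 0.0517) from 2 and 250 UMIs, Tnfrsf11a one of 0.312 (0.107 to 0.753) and Cd40 one of 0.413 (0.253 to 0.648). Foxn1Lin male was the low library in each of these. Both pairs share Foxn1Lin male, and the Tnfrsf11a and Cd40 levels in FB of every library, and the Tnfsf11 levels in FB of both Foxn1Lin libraries, lay below those of the empty droplets.

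In mural cells, 1 of 8 genes passed between Foxn1Lin female and Foxn1Lin male, where 14.5% of all genes did. This was Tnfrsf11b with 2.59 (1.27 to 5.51) from 25 and 13 UMIs, with a ratio of 0.687 when class purity was asked for and 1.33 when Ptprc barcodes were left out, so that 0 genes passed in either case. In mural cells of Foxn1Lin female and Foxn1Lin male the TEC list was at 391 and 118 CPM and the EC list at 386 and 66.3 CPM, and their part was not tested. Between Foxn1Lin male and wild type male 4 of 9 passed, where 11.2% of all genes did, and wild type male was the higher library in all of them. The ratios were 0.264 (0.158 to 0.424) for Tnfrsf11a, 0.194 (0.0975 to 0.357) for Tnfrsf11b, 0.0941 (0.0106 to 0.390) for Cd40 from 2 and 19 UMIs and 0.389 (0.290 to 0.518) for Traf3. The TEC list was at 327 CPM in mural cells of wild type male, against the 118 of Foxn1Lin male, and its part in these ratios was not tested either. With class purity asked for, 2 genes passed 2-fold.

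The other genes of the pathway were taken as 5 lists of 40 genes, chosen with earlier results of these data known. Between TEC and FB 56.1% of all genes passed and 29.5% were higher in TEC, and the share that passed in each list other than the ligands lay near the first of these. There, 3 of the 4 ligand genes tested were higher in TEC and 1 lower, and Tnfsf14 and Cd40lg were not tested. Tnf was higher by 3.79 ± 0.42, Ltb, a subunit of the membrane ligand of the lymphotoxin beta receptor, by 3.42 ± 0.45 and Lta by 6.36 ± 0.64, a fitted value since FB of both Foxn1Lin libraries were at 0. Of 7 other receptors, 0 were higher and 4 lower in TEC, among them the interleukin 1 receptor gene Il1r1 (-4.90 ± 0.34) and the TNF receptor genes Tnfrsf1a (-1.51 ± 0.14) and Tnfrsf1b (-2.24 ± 0.21). Of 7 NF-kB subunits and kinases, 1 was higher and 3 lower, with Nfkb1, the canonical p105 gene, at -1.27 ± 0.20, Rela at -0.53 ± 0.11 and the kinase gene Ikbkb at 0.56 ± 0.12. The medians were 3.61 for the ligands, -1.51 for the receptors and -0.21 for the subunits and kinases, beside 0.05 for all genes, and every call named is from edgeR's quasi-likelihood test.

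Of 11 adaptors and inhibitors, 3 were higher and 3 lower in TEC than in FB, near the 56.1% of all genes that passed and the 29.5% higher in TEC. The deubiquitinase gene Cyld was at 0.86 ± 0.14, the A20 gene Tnfaip3 at -2.02 ± 0.37 and Traf5 at -0.83 ± 0.16. Of 9 targets, 4 were higher and 1 lower, with the costimulatory gene Cd80 at 5.66 ± 0.45, the transcription factor gene Fezf2 at 6.35 ± 0.63 and the addressin gene Madcam1 at 5.62 ± 0.72, the last a fitted value since FB of Foxn1Lin male were at 0. The list medians were 0.01 and -0.10.

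Between Aire TEC and Psmb11 TEC 46.5% of all genes passed and 24.9% were higher in Aire TEC. Of the 6 ligand genes, 3 passed the filter on low counts, and all 3 were higher in Aire TEC. Tnf and Lta were at or near 0 in Psmb11 TEC and could pass that filter only through the other kinds of TEC. The count is therefore not read as a result. Tnf was at 84.5, 96.7 and 63.6 CPM against 1.201, 0 and 0.422, Ltb at 48.8, 72.9 and 56.5 against 26.4, 0 and 12.7, and Lta at 10.1, 9.21 and 21.8 against 0, 2.67 and 0.422. The fitted log2 differences of 6.83 ± 0.48, 2.10 ± 0.57 and 4.82 ± 0.92 depend on the prior count, since each gene had a library at 0. Tnf, Lta and Ltb are also genes of lymphoid and myeloid cells. The T lineage list was at 97.0, 48.4 and 49.6 CPM in Aire TEC and 393, 0 and 234 CPM in Psmb11 TEC, the B lineage list at 73.2, 79.1 and 58.4 CPM against 622, 2.67 and 25.3, and the innate lymphoid list at 271, 351 and 268 CPM against 149.5, 283 and 364. The myeloid and dendritic list is given beside Cd40 above, and the part of these cells in the ligand results was not tested.

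The counts of the other lists are read beside the 46.5% of all genes that passed between Aire TEC and Psmb11 TEC and the 24.9% higher in Aire TEC. Of 7 other receptors, 2 were higher and 3 lower in Aire TEC. The death receptor gene Fas was at 2.46 ± 0.16, Tnfrsf1a at -2.10 ± 0.21 and Tnfrsf12a at -2.84 ± 0.38. Of 7 NF-kB subunits and kinases, 4 were higher and 1 lower, with Rel at 1.98 ± 0.22, Ikbkb at 1.84 ± 0.21 and Rela at -1.01 ± 0.19. Of 11 adaptors and inhibitors, 7 were higher and 2 lower. Among them Traf1, an NF-kB target and adaptor, was at 201, 187 and 170.3 CPM against 5.40, 0 and 2.53, Birc2, which encodes the cIAP1 ligase that works with TRAF3, was higher by 1.66 ± 0.16 and the inhibitor gene Nfkbie by 1.65 ± 0.18. Of 9 targets, 6 were higher and 1 lower. Cxcl12 was lower by a log2 difference of -6.67 ± 0.39, Ccl19 higher by 4.25 ± 0.30, and Cd80 stood at 388, 464 and 400.3 CPM against 0, 2.67 and 3.796. The medians of the 5 lists in the order given were 4.82, 0.36, 0.78, 0.75 and 4.25, beside 0.02 for all genes. The first is over the 3 ligand genes tested. All counts are calls of edgeR's quasi-likelihood test.

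The lists were ordered differently where the class compared was another. Between TEC and EC the targets had the highest median (2.48) and the ligands 1.46, with 2 of 4 ligand genes past the threshold, both higher in TEC, where 57.4% of all genes passed. Between Aire TEC and Ccl21a TEC, where 40.3% of all genes passed, the median of the other receptors was -1.07, with 2 higher and 4 lower of 7. That of the 3 ligand genes tested was 4.80. Each of these comparisons shares sums with the one given before it.

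**Figure D5:**
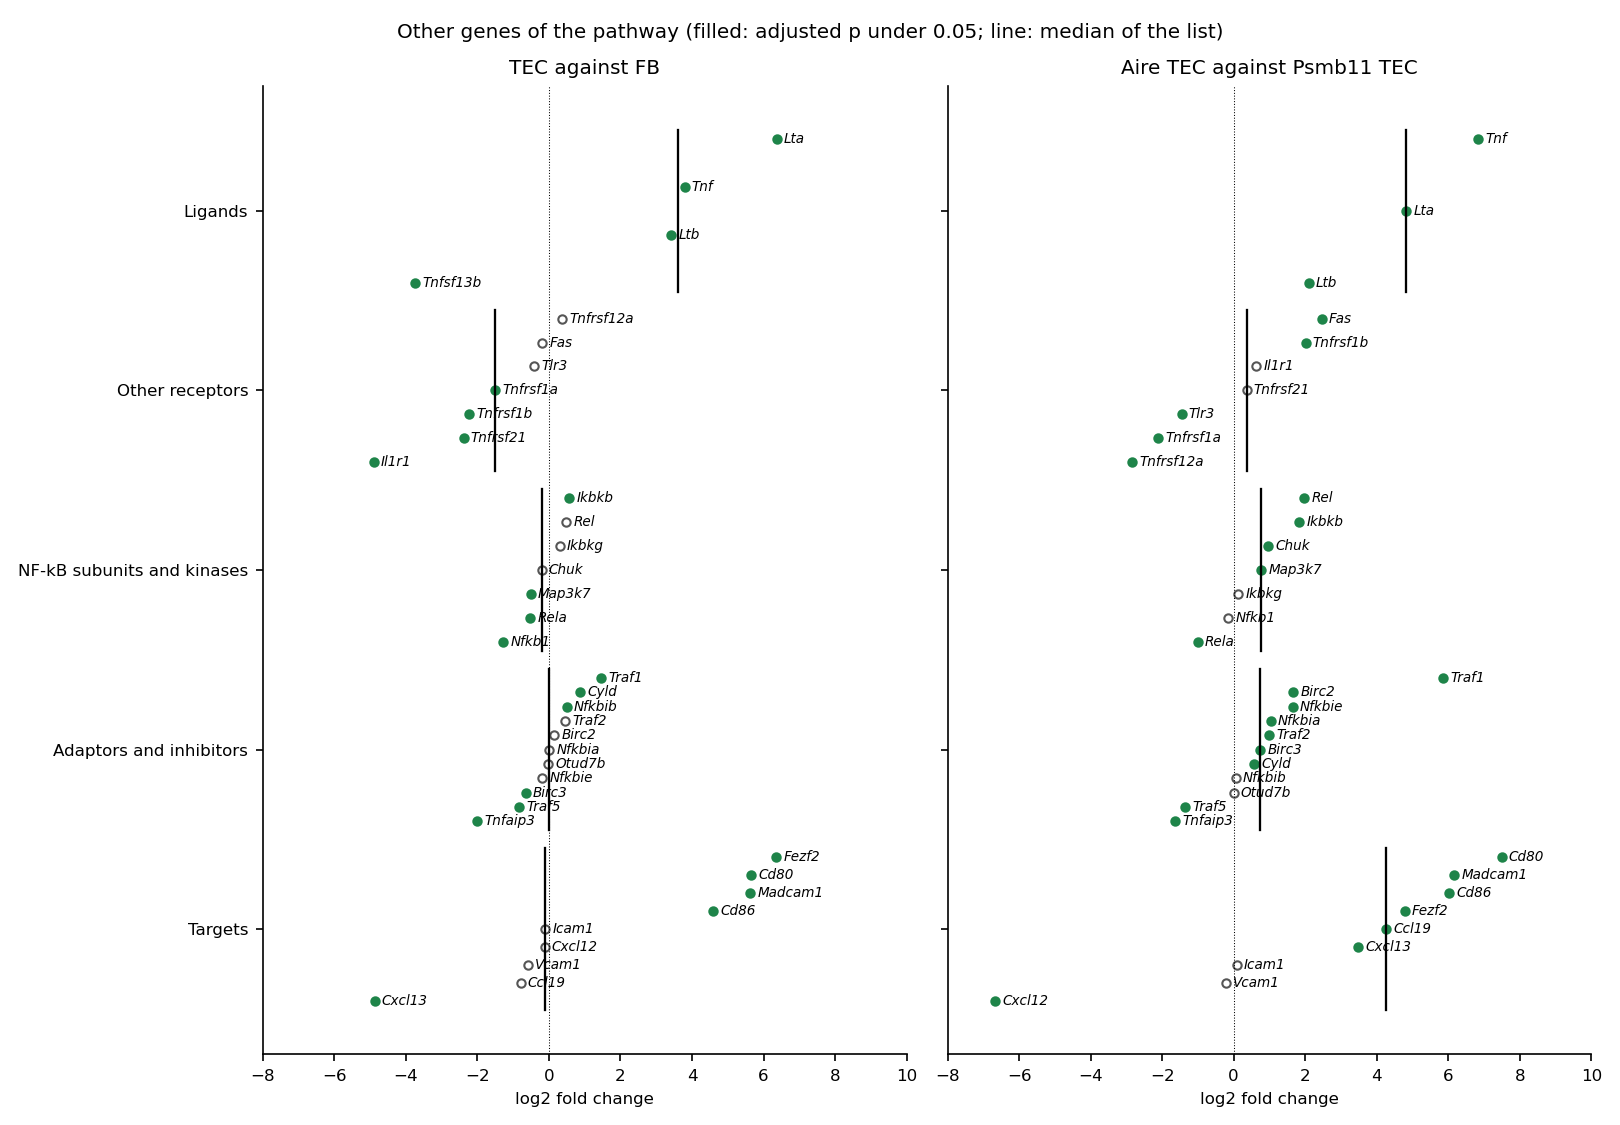
Log2 difference (x axis) of the genes of the 5 pathway lists (y axis) between TEC and FB and between Aire TEC and Psmb11 TEC, with filled points past the adjusted threshold of edgeR's quasi-likelihood test and vertical bars at the list medians. The ligand list had the highest median in these 2 comparisons (3.61 and 4.82), over 4 and 3 of its 6 genes. Lta in FB and Tnf, Ltb and Lta in Psmb11 TEC had libraries without a UMI, so this rank is not read as a result. In TEC against EC the ligands (1.46) lay below the targets (2.48), and the other receptors had the lowest median in TEC against FB (-1.51).

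Over the 21 sums of 7 groups in 3 libraries, the levels of the members moved together to different degrees, given as a description because sums of 1 library share its depth and free RNA. The sums include Aire TEC, which stood apart for most of these genes above, so r is not separate from those differences. Pearson's r of log2(CPM + 5) was 0.94 between Relb and Nfkb2, 0.94 between Cd40 and Traf6 and 0.88 between Cd40 and Relb. Ltbr ran against 8 of the 9 other members, with -0.89 for Relb and -0.74 for Tnfrsf11a, and had 0.12 for Tnfsf11. Tnfrsf11a had 0.58 with Cd40 and 0.62 with Tnfrsf11b. Among 16135 genes, those most like Tnfrsf11a were Magi1 (0.93), Wdr59 (0.93) and Tbc1d8 (0.92), and those most like Cd40 were Zmiz2 (0.95), Sdhaf1 (0.95) and Cnp (0.95). Those most like Tnfrsf11b were Bcl2a1b (0.97), Psca (0.96) and Mgam2-ps (0.96), and those most like Relb were Gm34586 (0.98), Krt81 (0.97) and Stra8 (0.97).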

How the data were processed

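Single-cell RNA was measured in 3 libraries of CD45- thymic stroma (1 per group). The deposited matrices hold UMI counts per gene and barcode, whole numbers with no normalization, for called barcodes and for all barcodes. Per the submitters' processing notes the authors used Cell Ranger 7.01. The notes name the builds GRCm38.p5 and mm10 without saying which served which data, and the study's methods give mm10 for single-cell libraries. Of the 32293 rows, 8 are transgenes. The deposited summaries give saturation and reads in cells as a percent of reads. Free RNA adds counts of abundant genes to every barcode, and collapsing reads to UMIs removes PCR copies; intervals cover counting error only.

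Raw counts were used as deposited, with no doublet caller: barcodes past the limits of 2 classes were dropped instead, and no cell filter was set in the main results. Counts were summed per library and class, and per library and kind of TEC, giving 12 sums per fit. edgeR 4.0.16 in R 4.3.3 was run with TMM scaling, filterByExpr, the library as a block and the quasi-likelihood test, with Benjamini-Hochberg adjustment over all genes tested and a threshold of 0.05. The sums of a library come from the same pool of thymi, which is the basis of the block. The fits were tested on simulated data with known changes, of which they missed most of the smaller size, so a difference that did not pass is not shown to be absent. Levels are CPM of summed counts with exact Poisson intervals, and shares of barcodes were taken after thinning to 2000 UMIs, without the shallower barcodes. A count of 0 allows 3 counts. Free RNA was read from uncalled barcodes within 2-fold of their most frequent UMI count. Python 3.11.15, numpy 2.4.6, scipy 1.17.1, pandas 2.3.3 and matplotlib 3.10.9 were used. Gene positions are from GENCODE vM21 (GRCm38) and matched the identifiers of the files for all 10 genes.

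The members, marker lists and pathway lists were chosen with earlier results of these data known. All members are named. Of each pathway list, at most 3 genes past the threshold with the smallest adjusted p were named in TEC against FB and in Aire TEC against Psmb11 TEC, and for likeness the 3 genes with the highest r among genes with at least 100 UMIs, without the genes that set the classes. Alternatives were DESeq2 1.42.0, other scaling, no filter on low counts, no library block, the 2 groups alone, each library left out, filters on cells, Ptprc, purity and limits, and Epcam barcodes of 2 classes kept as TEC, the last added after the data were seen.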

Additional observations from a re-analysis of the deposited data

Results flagged for a closer look

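Called barcodes of no single class were left out of the comparisons, other than the alternative that kept Epcam barcodes of 2 classes as TEC, and also held transcripts of the axis. Summed over the 3 libraries they had 5324 Tnfrsf11a, 2539 Tnfrsf11b, 157 Tnfsf11, 1903 Cd40 and 1484 Ltbr UMIs, and 6912 Relb, 4127 Nfkb2, 1942 Traf6, 7032 Traf3 and 3800 Map3k14 UMIs. Each of these is above the 3 counts that a count of 0 allows.

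Tnfrsf11a moved in opposite directions between libraries in FB and EC. The ratio of Foxn1Lin female to Foxn1Lin male was 3.93 in FB and 0.207 in EC, and the difference was not tested. The ratio of TEC to EC for Tnfrsf11a was 2.46 within Foxn1Lin female, 0.486 within Foxn1Lin male and 0.436 within wild type male, so that 1 library ran against the others, and this difference was not tested either.

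Relb in FB against EC had a CPM ratio of 1.15 within Foxn1Lin female, 0.880 within Foxn1Lin male and 0.858 within wild type male. The difference between libraries was not tested.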

How the results depend on the processing

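Of the members' log2 differences under the alternatives, 1282 stayed on their side of the threshold, 29 came to pass it and 30 no longer passed it. In 0 cases did the sign turn where the difference passed in either fit, whereas some differences that passed in neither changed sign, as Cd40 did between FB and mural cells (-0.51 to 0.64). Of the ratios between libraries 345 stayed within their interval, 14 moved and 1 reversed, and of the shares of barcodes 307 stayed and 653 moved. The alternatives for shares were thinning to 1000 or 4000 UMIs, no thinning and a limit of 2 or more UMIs. Each of these changes detection by itself. The counts of 8 genes in both comparisons of Aire TEC held throughout. The cause of the following moves was not tested. Between FB and mural cells the count of 5 genes was 3 with no library block (pairing of the sums within a library), and 3 to 5 when each library was left out. Between EC and mural cells the count of 4 was 2 to 3 when each library was left out. Between Ccl21a TEC and Psmb11 TEC the count of 1 was 2 with no filter on low counts and 3 with Epcam barcodes of 2 classes kept as TEC. That setting also moved the counts past 2-fold in TEC from 0 to 1 in both pairs of libraries, through Tnfsf11. Between Foxn1Lin female and Foxn1Lin male, leaving out Ptprc barcodes gave 1 gene in FB and 0 in mural cells, and class purity gave 0 in mural cells, where the Tnfrsf11b ratio of 2.59 reversed to 0.687. Between Foxn1Lin male and wild type male, class purity gave 2 genes in mural cells.

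Counts over all genes moved by more than 1.5 times as follows. Between Ccl21a TEC and Psmb11 TEC 1367 genes became 634 with no library block, 740 with limits on thinned barcodes, 664 with barcodes of 2 kinds kept in both and 102 to 806 when each library was left out. Without the block 4973 genes became 3045 between FB and mural cells. Without Foxn1Lin male and without wild type male, the counts were 2247 and 2145 there, 5049 and 5376 (of 8404) between TEC and mural cells, 4175 and 4187 (of 6984) between FB and EC, and 3475 and 3580 (of 6612) between EC and mural cells. Without wild type male they were 2882 (of 5257) and 3688 (of 6054) for Aire TEC against Ccl21a TEC and Psmb11 TEC. The 11 Psmb11 TEC of Foxn1Lin male and the few Tnfsf11 UMIs limit what those sums can show.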
